A study of Mus musculus with 24 samples.

Results

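Interferon-stimulated genes are the genes that cells switch on after an interferon binds its receptor. The 36 described here were taken from a fixed list of gene symbols, matched to Ensembl identifiers, and all 36 are listed in every deposited table, among 30699 genes listed in at least 1 table. The list uses no measured value, but it was drawn up with earlier results of these data known. The study sequenced poly(A) RNA of 2 fat depots from C57BL/6 mice, white fat (WAT) and brown fat (BAT). Age and sex of the mice were not stated in the labels. Every mouse received 2 subcutaneous injections of 25 mg/kg of an antisense oligonucleotide carrying locked nucleic acid, a modified nucleotide that binds RNA tightly. The scramblemiR group received a scrambled sequence, the antimiR-224 group an oligonucleotide against miR-224 and the antimiR-452 group an oligonucleotide against miR-452. Each tissue had 4 libraries in each of these 3 groups, 24 libraries in all, and no uninjected group was analysed here, so the scramblemiR controls also carry an injected oligonucleotide. Whether each library is a different mouse is not said in the labels, and the p-values therefore measure only the spread between these samples, which may be technical.

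Type I interferons (the alpha and beta interferons) signal through JAK kinases to a complex that holds STAT2 and IRF9 and binds a DNA element in the promoters of these genes. Several products detect viral nucleic acid or carry the signal onward, so the response feeds itself, and others block viral RNA, proteins or budding. In fat, the genes are expressed by adipocytes and by resident macrophages and other stromal cells. In libraries from whole tissue, a change in the number of cells that express a gene cannot be told apart from a change in the RNA per cell.

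By role, the list holds 4 sensors of nucleic acid (Ddx58, which encodes RIG-I, Ifih1, which encodes MDA5, Dhx58 and Zbp1) and 3 transcription factors of the pathway (Irf7, Irf9 and Stat2). It holds 7 genes of the IFIT and ISG15 group (Ifit1, Ifit2, Ifit3, Ifit3b, Isg15, Usp18 and Herc6) and 6 of the group of oligoadenylate synthetases and the kinase PKR (Oas1a, Oas2, Oas3, Oasl1, Oasl2 and Eif2ak2). Another 12 are other antiviral effectors (Mx1, Mx2, Rsad2, Cmpk2, Bst2, Samd9l, Trim30a, Xaf1, Rtp4, Ifi44, Ifi35 and Ifi27l2a), 3 belong to the PARP9 system (Parp9, Dtx3l and Parp14) and 1 is secreted (Lgals3bp). Some have close copies, and how reads that fit several genes were counted is not stated in the labels. The share of 31-base words of the transcripts that occurs in another gene was 68.8% for Oas1a, most of it in Oas1g, 61.8% for Ifit3 and 55.2% for Ifit3b, which share with each other, so the values of these 3 genes are uncertain. Parp9 and Dtx3l overlap on opposite strands over 9.4% and 8.0% of their exon length, and Ifi35 overlaps Gm11626 over 16.8%, and although the library kit keeps strand, the strand setting of the counting is not stated.

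The element bound by the complex with STAT2 and IRF9 contains GAAA, any 2 bases and GAAA again, or TTTC, any 2 bases and TTTC when read on the other strand. This interferon motif was searched on both strands in the promoter sequences of RefSeq (build GRCm38.p6), which run from 250 bases before to 50 bases after the start of a gene. An entry was found for 26 of the 36 members, and 13 of these 26 (50%) held the motif, against 1079 of 27025 genes (3.99%) in the whole RefSeq table. The motif TTCNNNGAA, where N is any base, which STAT dimers bind and which reads alike on both strands, was in 5 of 26 members (19.2%) and in 2582 of 27025 genes (9.55%), and matches of the 2 motifs overlapped in 1 member (Bst2). Matches of the interferon motif overlapped each other in 3 members (Isg15, Oas1a and Bst2). The stretches below, read 5′ to 3′ on the strand of the gene with the interferon motif in capitals, are shown as examples of the motif: in each role group with such an upstream match, the member with the largest deposited change in WAT after antimiR-224. No change of these 4 in that comparison passed a test, and the 2 members with an unadjusted p under 0.05 there, Samd9l and Irf9, held 0 matches of the interferon motif. They lie at chr10:128270251-128270310 (Stat2, plus strand), chr19:34640760-34640838 (Ifit1, plus strand), chr5:120777700-120777759 (Oas3, minus strand) and chr7:104465195-104465254 (Trim30a, minus strand).
Stat2: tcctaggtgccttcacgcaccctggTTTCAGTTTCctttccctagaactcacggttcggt
Ifit1: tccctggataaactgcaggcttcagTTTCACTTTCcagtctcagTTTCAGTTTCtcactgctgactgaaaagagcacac
Oas3: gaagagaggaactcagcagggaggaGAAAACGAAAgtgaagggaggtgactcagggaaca
Trim30a: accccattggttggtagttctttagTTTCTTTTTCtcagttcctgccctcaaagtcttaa

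The match began 222 bases before the start of Stat2, 104 and 85 bases before that of Ifit1, 75 bases before that of Oas3 and 36 bases before that of Trim30a. A match is a run of letters and shows no binding. The inhibitors are directed at the 2 microRNAs below, whose genes lie near each other on the minus strand of chromosome X, at chrX:72261085-72261105 for the mature miR-224 and chrX:72262271-72262292 for the mature miR-452 (RefSeq, GRCm38.p6). The seed, bases 2 to 8, with which a microRNA pairs to its targets, is in capitals and differs between them.
mmu-miR-224-5p: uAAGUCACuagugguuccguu
mmu-miR-452-5p: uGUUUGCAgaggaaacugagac

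The deposited tables give group means of normalized read counts (reads divided by a size factor of each library), and the whole reads of each library were recovered from their printed digits. The control libraries held 22175430 to 27935908 reads in genes in WAT and 16960694 to 20255777 in BAT, and the totals of the inhibitor libraries are not known. Libraries are numbered 1 to 4 within a group by descending size factor, which is only a name. The deposited control means match the tissue labels: Ucp1, the uncoupling protein of brown fat, was at 86679 in BAT and 49.7 in WAT in the authors' deposited table for antimiR-224, and leptin (Lep) was at 62.5 in BAT and 7016 in WAT. Some WAT libraries stood apart in genes of other tissues. Spermatid genes, as a geometric mean, stood at 2438 in scramblemiR library 2, 703 in antimiR-224 library 3 and 214 in library 4, against 1.0 to 53.6 in the other 9 libraries. For ciliated epithelium the values were 526 and 611 (antimiR-224 libraries 1 and 2) and 300.2, 513 and 393 (antimiR-452 libraries 1 to 3), against 2.5 to 115 in the other 7, and antimiR-452 library 3 held skeletal muscle genes at 501, against 5.8 to 13.5 elsewhere.

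Transcripts of the interferons themselves were hardly detected. Of 21 interferon genes, 7 were listed in WAT with 24 reads in all over 12 libraries, 16 of them from Ifng, the gene of interferon gamma, and 2 were listed in BAT with 3 reads in all. No library held more than 8 such reads. The receptor genes were expressed: the geometric mean of 5 of the 6 receptor genes lay between 391 and 584 in all 12 WAT libraries.

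In control animals the question was how the level of the response genes differs between white and brown fat. Most members were more abundant in WAT. The comparison used normalized counts of the 8 scramblemiR libraries on 1 common scale and limma on log2(normalized count + 1), with the Benjamini-Hochberg adjusted p at most 0.05. Of 36 members tested, 19 were called (43.1% of all 16424 genes were), 19 of them higher in WAT (22.6% of all genes were) and 0 lower (20.5% of all genes were). The estimate was below 0 in 2 members, Cmpk2 (-0.21) and Rsad2 (-0.17), and neither passed. The median log2 difference of the members was 1.01, against 0.05 over all genes tested. In 18 members (21.7% of all genes) all 4 WAT values lay above all 4 BAT values.

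Zbp1, the sensor of Z-form nucleic acid, had the largest difference: its WAT controls were at 53.0, 109.9, 76.8 and 94.2 and its BAT controls at 28.6, 10.2, 19.99 and 5.91 normalized counts. The groups did not overlap, and the log2 difference was 2.46 ± 0.48 (SE, n = 4 libraries against 4, limma adjusted p 0.00267). Oasl2, an oligoadenylate synthetase-like protein, was at 429.7, 702, 752 and 474 in WAT and at 150.3, 106, 187 and 91.7 in BAT, without overlap (2.15 ± 0.27, limma adjusted p 2.5e-04). Ifi27l2a, a small interferon-induced mitochondrial protein, was at 11029, 11922, 24880 and 11288 in WAT and at 2832, 2320, 2397 and 4237 in BAT (2.28 ± 0.30, limma adjusted p 3.2e-04), with WAT library 3 high.

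The called members came from every role: 3 of 4 sensors, 1 of 3 transcription factors, 5 of 7 in the IFIT and ISG15 group, 2 of 6 in the synthetase and PKR group, 4 of 12 other effectors, all 3 of the PARP9 system and the secreted Lgals3bp. Their adjusted p in limma lay between 2.5e-04 and 0.0309. Beside Zbp1, the called sensors were Ifih1 (MDA5), at 557, 442, 666 and 481 in WAT and 261, 223.95, 214 and 197 in BAT, a log2 difference of 1.25, and Ddx58 (RIG-I), at 607, 650.0, 576 and 601 and then 368, 334, 521 and 424, a difference of 0.58. Both were free of overlap. Irf7, which drives further interferon transcription, was at 521, 548, 595 and 623 in WAT and at 242, 248, 591 and 182 in BAT (1.01), and BAT library 3 reached the WAT values.

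In the IFIT and ISG15 group, Ifit1, which binds viral RNA without a host cap, was at 146, 221, 202 and 249 in WAT and at 101, 76.8, 116 and 59.1 in BAT (log2 1.22), and its partner Ifit2 at 268, 269, 279 and 336 and then 178, 157, 188 and 75.4 (1.02). Ifit3 was at 186, 306, 318 and 437 and then 135, 83.2, 129.9 and 94.6 (1.45), and its near copy Ifit3b at 54.3, 77.8, 97.0 and 109 and then 67.1, 29.4, 11.4 and 28.1 (1.49). Ifit3b alone of these 4 overlapped, through BAT library 1. Herc6, a ligase for ISG15, was at 126, 185, 187 and 151 and then 75.7, 66.5, 71.4 and 42.9 (1.34), while Isg15 and Usp18 did not pass. The kinase PKR (Eif2ak2), which halts translation, was at 620.0, 519, 655 and 703 in WAT and at 399.8, 369, 417 and 347 in BAT (0.70), without overlap.

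Of the other effectors, Samd9l, which limits translation of viral RNA, was at 678, 852, 696 and 549 in WAT and at 268, 342, 268 and 154 in BAT (log2 1.46). Trim30a, a TRIM-family regulator, was at 302, 455, 406 and 404 and then 169, 179, 241 and 149 (1.09), and Mx1 at 17.0, 56.0, 27.9 and 43.3 and then 13.7, 10.2, 11.4 and 2.96 (1.84). None of these overlapped. Of the PARP9 system, which pairs a protein of the ADP-ribosyltransferase family with a ubiquitin ligase, Parp9 was at 1275, 825, 1205 and 1166 and then 500.4, 462, 451 and 568 (1.16), its partner Dtx3l at 1109.9, 647, 800.5 and 725 and then 487, 366, 319.8 and 381 (1.06), and Parp14 at 947, 965, 1041 and 937 and then 612, 562, 809 and 441 (0.71). Lgals3bp, a secreted glycoprotein, was at 4049, 3148, 3889.8 and 5651 and then 1608, 1088, 2582 and 1348 (1.38). All 4 were free of overlap. The call of Irf7 was lost when any 1 of 6 libraries was left out and those of Ifit3b and Mx1 without some, while the other 16 were called in every setting in which they were tested. At a minimum mean of 50, Zbp1 and Mx1 were not tested, and 17 of 30 members were called. Without BAT library 3, in which Irf7, Isg15 and Bst2 were high, 27 members were called.

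Markers of macrophages differed in the same direction. Of 14 macrophage markers, 13 were called higher in WAT with a median log2 difference of 2.0, and their geometric mean was 754 to 925 in the WAT controls and 135 to 316 in the BAT controls. The geometric mean of the 36 members was 228 to 319.5 in WAT and 107 to 197 in BAT. The part of any of these cells in the difference of the members was not tested.

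**Figure D1:**
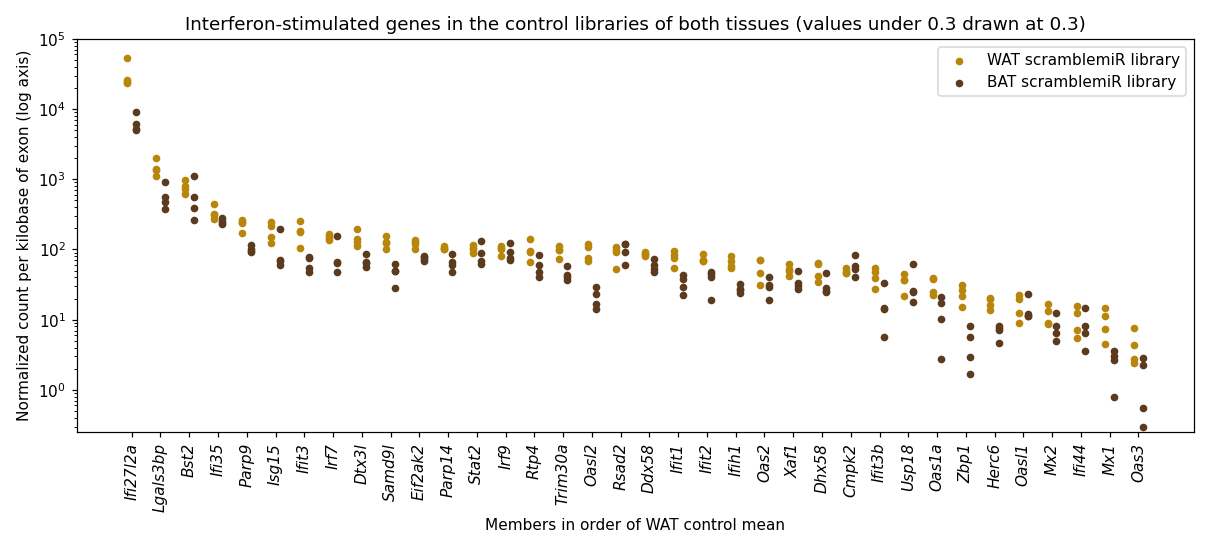
Levels of the 36 interferon-stimulated genes in the scramblemiR controls, as normalized counts per kilobase of exon on a log axis, for the 4 WAT and 4 BAT libraries, in order of the WAT mean, each point 1 library, values under 0.3 drawn at 0.3. Ifi27l2a stands far above the rest in both tissues, Mx1 and Oas3 are lowest, and for most genes the WAT points lie above the BAT points.

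Divided by exon length so that genes can be compared, the order of the members was alike at both ends in both tissues. Ifi27l2a was highest with 31921 normalized counts per kb in WAT and 6364 in BAT, followed by Lgals3bp with 1470 and 582. Bst2, the tethering protein that holds budding virus on the cell, had 784 and 581, and Ifi35, an adaptor in interferon signalling, 334 and 251.1. Mx1 and Oas3 were lowest, with 9.52 and 4.27 per kb in WAT and 2.53 and 1.41 in BAT. In between, Rsad2, which encodes the antiviral enzyme viperin, ranked 18 in WAT and 7 in BAT, while Oasl2 ranked 17 in WAT and 27 in BAT.

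In WAT after antimiR-224, 2 of the 4 libraries held high levels of the interferon-stimulated genes and the other 2 did not. The values from here on are normalized counts on a common scale for the 12 libraries of a tissue. Over the 33 members recovered in all WAT libraries, the geometric mean was 249, 330, 316 and 354 in the scramblemiR libraries and 240.2, 258, 508 and 1221 in the antimiR-224 libraries. AntimiR-224 libraries 1 and 2 were within or just below the range of the controls, library 3 lay above it and library 4 lay far above it. In library 4, all 33 members were above the highest control (14.5% of all 15237 genes were), with a median ratio to the geometric mean of the controls of 3.35, from 1.80 for Ifi35 to 15.95 for Zbp1, ratios taken after adding 1 count. In library 3, 26 of 33 members were above the highest control (14.9% of all genes) and 0 below the lowest (15.3% of all genes), with a median ratio of 1.58. In libraries 1 and 2, 2 of 33 members were above the highest control in each (19.7% and 24.5% of all genes) and 12 below the lowest in each (15.1% and 20.3% of all genes), with median ratios of 0.81 and 0.86.

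**Figure D2:**
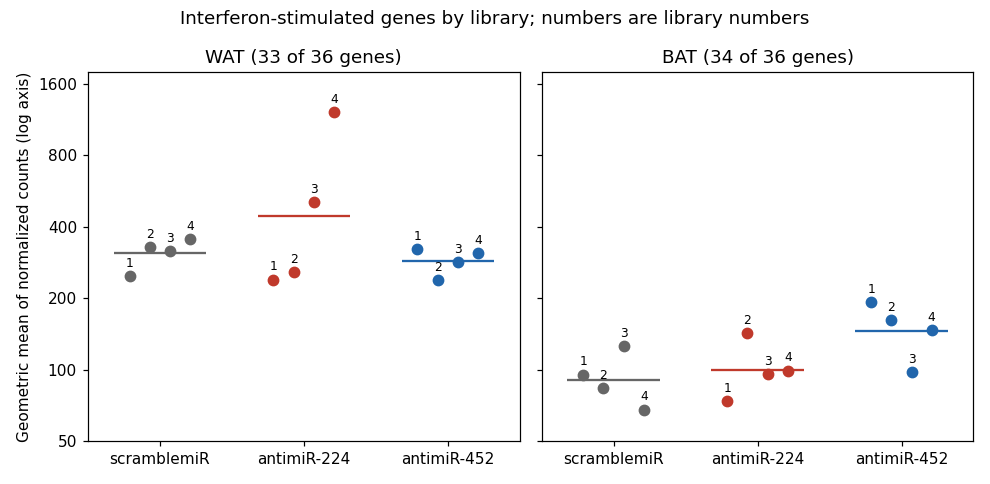
Geometric mean of the interferon-stimulated genes in each library of WAT (33 genes) and BAT (34 genes), in normalized counts on a log axis, by treatment, each point 1 library and each line the mean of the group. WAT antimiR-224 library 4, at 1221, and library 3, at 508, lie above all other WAT libraries, which lie between 238 and 354.

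No member passed the test between the groups. With limma on log2(normalized count + 1), 0 of 33 members were called at an adjusted p of 0.05 (0.0% of all 15526 genes), the lowest adjusted p of a member was 0.830, and the authors' deposited table called 0 of the 36 members (0.00343% of its 29128 genes). Of the 33 members, 32 had a log2 fold change above 0 (53.9% of all genes), with a median of 0.54 against 0.03 over all genes and a range from -0.04 (Dhx58) to 1.06 (Zbp1). Without library 4 the median was 0.05 with 22 of 33 above 0, and without libraries 3 and 4 it was -0.27 with 3 of 33 above 0, so the direction of the group mean rested on these libraries. The same libraries differed in markers of other tissues, as given after the members. The authors' deposited table had 2 members higher at an unadjusted p under 0.05 (1.12% of its genes). At that p in limma there were 2 members higher (3.25% of all genes) and 0 lower (2.74% of all genes). Without library 1, which was at or below the level of the controls, 8 were higher and the median was 0.85. The share of all genes at that p was not computed for that fit.

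Those 2 were Samd9l, a restriction factor that limits translation, and Irf9, the DNA-binding part of the STAT complex. Samd9l was at 928, 1157, 954 and 749.8 in the controls and at 1178, 1308, 1539 and 2144 after antimiR-224. Its log2 fold change was 0.69 ± 0.20 (SE, limma p 0.0070, adjusted p 0.830). Irf9 was at 593, 813, 746 and 768 in the controls and at 869.9, 975, 1149 and 1983 after antimiR-224 (0.71 ± 0.24, limma p 0.0161, adjusted p 0.830). In these 2 members alone all antimiR-224 libraries lay above all controls (1.74% of all genes did so). Without libraries 3 and 4 the log2 fold changes were 0.44 for Samd9l and 0.38 for Irf9, among the 3 of 33 still above 0, and neither passed.

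Among the sensors, Zbp1 had the largest ratio in library 4: 72.5, 149, 105 and 129 in the controls and 88.8, 71.2, 243 and 1771 after antimiR-224. The authors' deposited table gives a log2 ratio of 2.24 for Zbp1 with an unadjusted p of 0.30, and without libraries 3 and 4 the limma estimate was -0.43. Ddx58, the sensor of viral RNA ends, was less variable, at 789 to 883 in the controls and 743, 778, 1054 and 1556 after antimiR-224. Ifih1, the sensor of long double-stranded RNA, was at 601 to 913 and then at 618, 509.8, 991 and 1608. Dhx58, the helicase that tunes both of these, was at 152 to 289 and then at 113, 121, 253 and 585. Only library 4 was above all controls for Dhx58, while libraries 3 and 4 were for the other 3 sensors.

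The transcription factors followed the same pattern except that Irf9 was also above the controls in libraries 1 and 2. Irf7, the factor that amplifies type I interferon genes, was at 713, 745, 815 and 851 in the controls and at 694, 664, 1056 and 3088 after antimiR-224. Stat2, a transcription factor of the same complex as IRF9, whose promoter match is shown above, was at 723 to 945 and then at 687, 666, 1228 and 3218. Both were highest in library 4, next in library 3 and below every control in libraries 1 and 2.

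In the IFIT and ISG15 group all 7 members had estimates above 0, with a median log2 fold change of 0.71, and 0 had a p under 0.05. Ifit1, which binds viral RNA that lacks a host cap and has 2 promoter matches above, was at 199.6, 300.5, 276 and 339.6 in the controls and at 212, 293, 639 and 2140.1 after antimiR-224. Its log2 fold change was 0.99 ± 0.63 (SE, limma adjusted p 0.840). Ifit3b was at 74.3, 106, 133 and 148 and then at 70.7, 81.6, 242 and 767, and Ifit3 at 254, 415, 436 and 597 and then at 205, 245, 792 and 2993. Isg15, the ubiquitin-like protein attached to many targets, was at 129, 223, 155 and 256.1 and then at 165, 185, 280.3 and 1190.0. Usp18, which removes ISG15 and dampens the receptor, was at 82.3 to 169 and then at 90.5, 139.5, 275 and 546, and Herc6, the mouse ligase for ISG15, at 173 to 256.2 and then at 146, 223, 411 and 858. In all 6 of these genes libraries 3 and 4 lay above the controls and libraries 1 and 2 within or below them.

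Among the synthetases, whose product activates RNase L, Oas3 was at 23.3, 72.3, 42.5 and 26.7 in the controls and at 24.1, 14.2, 93.4 and 602 after antimiR-224. Oas2 was at 187 to 432 and then at 236, 225, 727 and 1349.8, and Oas1a, whose reads may be shared with Oas1g, at 58.2 to 101 and then at 48.3, 79.7, 180.3 and 421. The kinase PKR (Eif2ak2), which halts translation, was at 705 to 961 and then at 780.3, 745, 1073 and 1784. For Oasl2 the antimiR-224 reads could not be recovered, and the authors' deposited table gives means of 800 in the controls and 1921 after antimiR-224, whose ratio of 1.26 on the log2 scale had an adjusted p of 1.

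Among the other effectors, Trim30a was at 413 to 619 in the controls and at 447, 453, 801 and 1655 after antimiR-224, with libraries 3 and 4 above the controls. Ifi44 was at 46.5, 60.3, 103 and 131 in the controls and at 52.6, 58.9, 247 and 781 after antimiR-224. Rtp4, a receptor-transporting protein, was at 195 to 410.3 and then at 218, 246, 505 and 1513. In Bst2 library 3 was within the controls, which were at 773, 979, 894 and 1219 before 859.6, 979, 1066 and 3139 after antimiR-224. Rsad2, at 309 to 637 in the controls, was likewise above them only in library 4, at 391, 308, 532 and 1286, and Ifi35, at 647 to 1033, was at 682, 753, 809 and 1395. The PARP9 system, a pair of partners and a related ADP-ribosyltransferase, had the smallest median log2 fold change of the role groups, 0.21, with Parp14 at 1281 to 1427 in the controls and at 1077, 1003, 1896 and 3308 after antimiR-224. The authors' deposited table gives Ifi27l2a as 20013 and 19438 (log2 ratio -0.04), the only member below 0 there, and Lgals3bp as 5672 and 6928 (0.29).

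**Figure D3:**
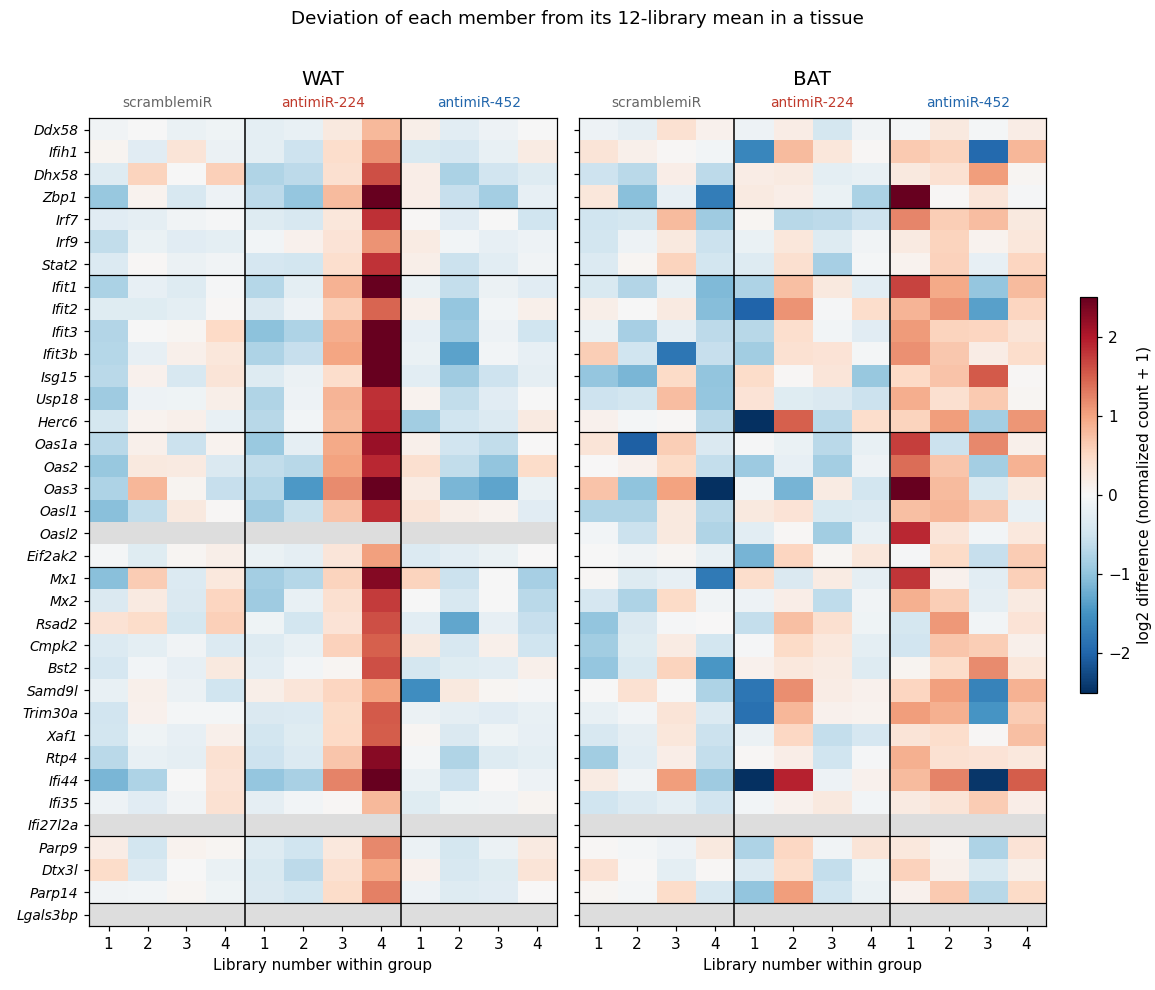
Each recovered interferon-stimulated gene in each library as the difference of its log2(normalized count + 1) from the mean of the 12 libraries of the tissue, genes in rows by role and libraries in columns by treatment, grey where reads were not recovered in all 12 libraries, colour scale in log2 units. The column of WAT antimiR-224 library 4 is above the mean in all 33 genes, and columns 1 and 2 of that group are near or below it in most.

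Other genes of the interferon pathway were higher in library 4 as well, but not every list. The interferon-gamma-induced GTPases had a geometric mean of 168 to 217 over 13 genes in the controls and of 157, 169, 274 and 981 after antimiR-224, and all 13 tested had an estimate above 0 (median log2 0.70), 0 called. Antigen processing genes, 7 tested and 7 above 0, were at 647 to 1051 in the controls and at 792, 836, 796 and 2165 after antimiR-224. Library 3 was thus not above the controls there. Other interferon-induced genes were above 0 in 38 of 42 (median 0.36), with 552 in library 4 and 191 to 265 in the controls. Receptor genes were above 0 in 2 of 5 (median -0.08), and library 4 held 409.8 against 391 to 487 in the controls. Of these genes 0 were called in any of the lists, and 53.9% of all genes had an estimate above 0.

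Cell type markers gave these values in the same libraries. The 7 recovered macrophage markers had a geometric mean of 421 to 509 in the controls and of 431, 428, 567 and 937 after antimiR-224, with 6 of 7 estimates above 0 (53.9% of all genes). Markers of plasmacytoid dendritic cells, the main makers of interferon, were at 5.1 to 27.2 in the controls and at 19.2, 17.5, 20.1 and 8.5 after antimiR-224, so that library 4 was within the controls. T and NK cell markers were at 6.5 to 33.1 in the controls and 8.2 in library 4. The spermatid genes named above were at 703 and 214 in libraries 3 and 4, but also at 2438 in scramblemiR library 2, where the members had a geometric mean of 330, within the other controls. Other lists also separated antimiR-224 libraries 1 and 2 from libraries 3 and 4. Markers of simple and tubule epithelium (8 of 10 recovered) were at 14.5 to 52.2 in the controls and at 254, 416, 30.8 and 21.4 after antimiR-224. Those of ciliated epithelium (8 of 9 recovered) were at 2.5 to 115 and then at 526, 611, 41.4 and 19.7. In both lists libraries 1 and 2, where the members were at or below the level of the controls, lay above all controls, and libraries 3 and 4 lay within them. Mesothelial markers (2 of 9 recovered) were at 75.0 to 719 and then at 402, 336, 1371 and 725, with libraries 3 and 4 above the controls. The 1 recovered of 7 fibroblast and progenitor markers was at 887 to 2351 and then at 1378, 828, 1940 and 2885. The part of any of these cells in the levels of the members was not tested.

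In WAT after antimiR-452 the members stayed near the controls. Their geometric mean was 322, 238, 284 and 309 in the 4 libraries, against 249 to 354 in the controls that this comparison shares with antimiR-224. With limma, 0 of 34 members were called (0.0% of all 15549 genes, and also 0.0% in the authors' deposited table), 11 of 34 estimates were above 0 (46.2% of all genes) and the median was -0.07 (-0.02 over all genes). In 0 members were the groups free of overlap (0.99% of all genes upward and 0.714% downward). At an unadjusted p under 0.05, 1 member was lower (0.823% of all genes) and 0 higher (3.84% of all genes), and at that p in the authors' deposited table, 0 members were higher (2.31% of its genes) or lower (0.107% of its genes).

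That member was Rsad2, at 541, 581, 309 and 637 in the controls and at 349, 170.1, 363 and 283 after antimiR-452. The ranges overlapped through control library 3, and the log2 fold change was -0.82 ± 0.30 (SE, limma p 0.0238, adjusted p 0.996). Dhx58 was at 152, 280.1, 190.3 and 289 and then at 213, 109.7, 137 and 153 (-0.54 ± 0.29, limma adjusted p 0.996). Oas3 was at 23.3, 72.3, 42.5 and 26.7 and then at 47.1, 17.7, 15.6 and 36.1, and Ifit3 at 254, 415, 436 and 597 and then at 364, 224.04, 383 and 299, both overlapping. The authors' deposited table gives Ifi27l2a as 20142 and 15043 (log2 ratio -0.42). Library 2 was low in many members, with 16 of 33 below the lowest control (19.4% of all genes) and a median ratio of 0.77. It was lowest of its group for Ifit1, Ifit2, Ifit3 and Ifit3b, and for Ifit3b stood at 47.4 beside 108, 115 and 106, against 74.3 to 148 in the controls. Samd9l was the exception in library 1, at 361 beside 1265, 1105 and 1042. The median was 0.02 without library 2 and -0.14 without control library 1. Libraries 1 to 3 of this group held the ciliated epithelium genes named above, and simple and tubule epithelium markers at 254, 223 and 201 beside 14.1 in library 4 and 14.5 to 52.2 in the controls. Library 3 held the skeletal muscle genes, and its geometric mean of the members, 284, was within the controls. The 7 recovered macrophage markers were at 680, 264, 379 and 499 in the 4 libraries, against 421 to 509 in the controls. B cell markers were at 34.5, 346, 20.7 and 18.4, against 60.9, 338, 31.7 and 10.3 in the controls. Library 2 thus held the lowest macrophage and the highest B cell value of its group. The part of these tissues and cells in the values of the members was not tested.

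In BAT after antimiR-224 no common direction was seen. Over the 34 members recovered in all BAT libraries, the geometric mean was 95.6, 83.8, 126 and 68.1 in the controls and 73.7, 143, 96.1 and 99.3 after antimiR-224. With limma, 0 of 33 members were called (0.0% of all 12109 genes, and 0.0% in the authors' deposited table), and 18 of 33 estimates were above 0 (40.6% of all genes), with a median of 0.05 against -0.09 over all genes. Without library 2 the median was -0.14, and without library 1 it was 0.34. It also changed sign without library 4 (-0.01) or control library 4 (-0.07). At an unadjusted p under 0.05, 1 member was higher (3.34% of all genes) and 0 lower (2.44% of all genes). Without control library 3 there were 5 higher, without library 1 there were 3, and without control library 4 there were 0 higher and 1 lower. For these fits the share of all genes at that p was not computed. In the authors' deposited table, at that p, 0 members were higher (0.477% of its genes) or lower (0.668% of its genes).

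This was Ifi35, at 300.3, 335, 355 and 304 in the controls and at 402, 458, 502 and 404 after antimiR-224. The groups did not overlap, as in 2.26% of all genes, and the log2 fold change was 0.43 ± 0.15 (SE, limma p 0.0199, adjusted p 0.736). Library 2, with a geometric mean of the members of 143, lay above all controls. There, 19 of 34 members were above the highest control (22.5% of all genes) and 0 below the lowest (18.7% of all genes). Library 1, at 73.7, lay within the controls (68.1 to 126). Its median ratio of the members to the geometric mean of the controls was 0.95. In it, 3 of 34 members were above (21.7% of all genes) and 11 below (29.9% of all genes), the latter near the share of all genes.

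Ifi44 was at 36.7, 29.97, 66.4 and 16.7 in the controls and at 2.43, 124, 28.9 and 34.4 after antimiR-224. Herc6 was at 32.3 to 56.0 and then at 8.09, 147, 32.3 and 71.1, and Ifit2 at 56.7 to 139 and then at 29.1, 261, 117 and 162. Library 1 was the lowest and library 2 the highest of their group in all 3. Isg15, by contrast, was at 39.5, 34.8, 109.7 and 38.9 and then at 108, 80.3, 97.0 and 40.3, with library 1 the highest of its group, and Irf7 at 179, 188, 437 and 137 and then at 264, 156, 161 and 175. Ifit1 was at 44.5 to 85.4 and then at 56.6, 166, 115 and 80.6, and Rsad2 at 194 to 391 and then at 256.5, 657, 509 and 359, whereas Oas2, at 97.4, 103, 134 and 63.4 and then at 51.0, 82.8, 53.1 and 87.7, had the most negative estimate, -0.54. All of these overlapped. The authors' deposited table gives Ifi27l2a as 2189 and 4278, a log2 ratio of 0.97 with an unadjusted p of 0.062, the largest ratio of the members there.

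In BAT after antimiR-452 most estimates were above 0, but no member passed the adjusted test. The geometric mean of the members was 193, 163, 98.2 and 147 after antimiR-452, against 68.1 to 126 in the controls shared with the antimiR-224 comparison, so 3 of 4 libraries lay above all controls. With limma, 0 of 34 members were called (0.0% of all 12978 genes, and 0.0% in the authors' deposited table), with a lowest adjusted p of 0.998. Of the estimates, 32 of 34 were above 0 (43.9% of all genes), with a median of 0.61 (-0.06 over all genes) and a range of -0.08 to 1.49. Oas3 and Mx1 passed the minimum mean of 10 here and not in the antimiR-224 fit, through their level after antimiR-452. The filter therefore favoured their upward direction. With the minimum mean raised to 50, 24 of 26 members were above 0 and the median was 0.58. At an unadjusted p under 0.05, 11 members were higher (2.08% of all genes) and 0 lower (2.13% of all genes). That count was 4 without control library 1, 2 or 4, 5 without antimiR-452 library 2 and 18 without antimiR-452 library 3. It was 9 of 26 with the minimum mean of 50. For these fits the share of all genes at that p was not computed. By the p-values in the authors' deposited table the count was 3, and 0.19% of all genes passed upward and 0.309% downward there.

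**Figure D4:**
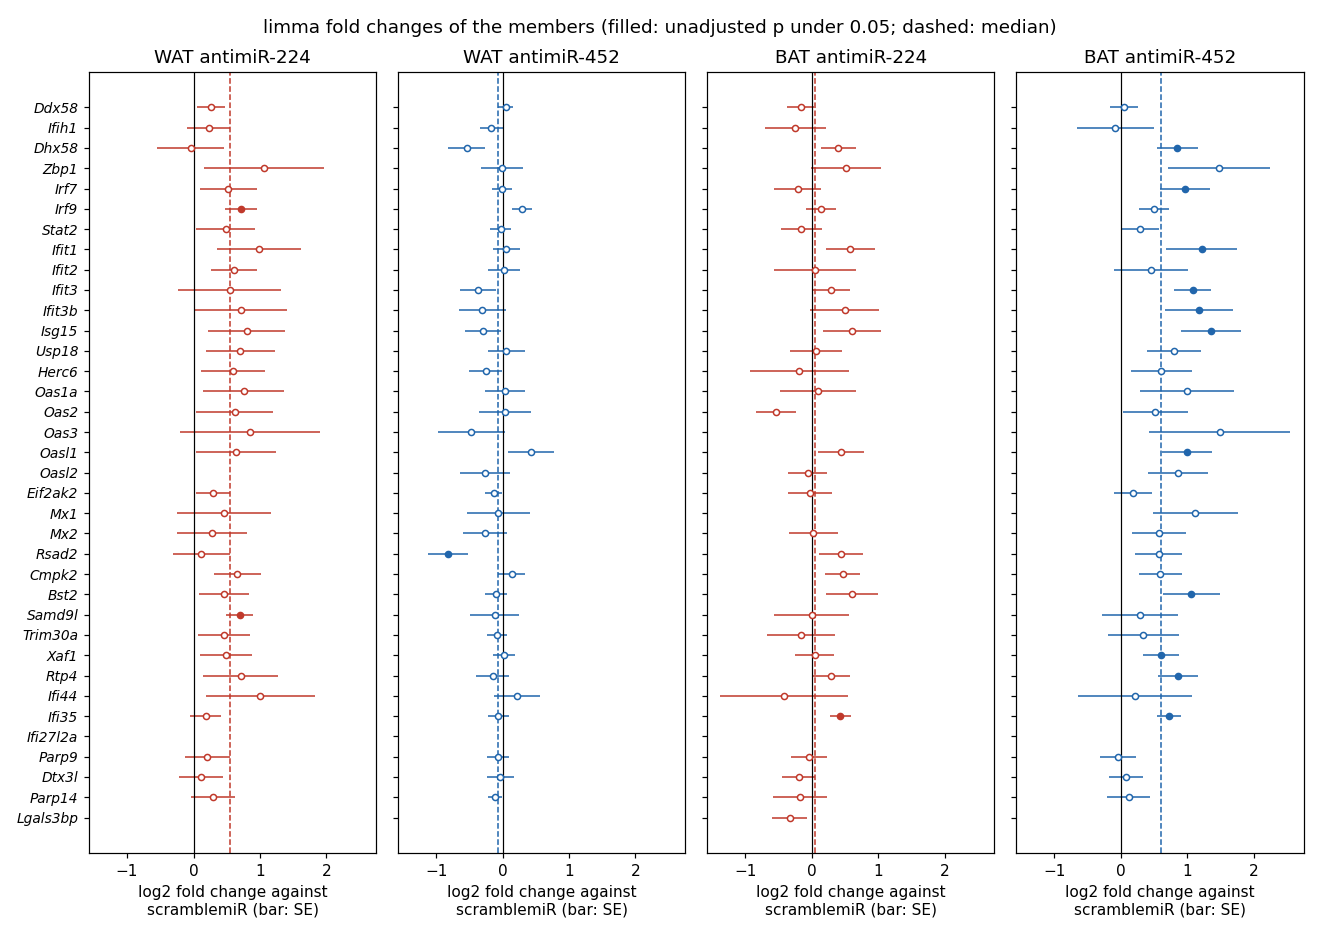
Log2 fold change against scramblemiR with its standard error for each interferon-stimulated gene in the 4 comparisons (limma on log2(normalized count + 1), 4 libraries against 4), genes by role, filled points with an unadjusted p under 0.05 and dashed lines at the median. Most points lie above 0 in WAT after antimiR-224 and in BAT after antimiR-452, and near 0 in the other 2 panels, and no point passed an adjusted p of 0.05.

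The IFIT and ISG15 group held 4 of the 11 and had the largest median of the role groups, 1.08. Ifit3 was at 100.1, 62.8, 95.9 and 71.2 in the controls and at 235, 165, 163 and 140.3 after antimiR-452. All 4 libraries lay above all controls, and the log2 fold change was 1.08 ± 0.28 (SE, limma p 0.0033, adjusted p 0.998), with the reservation that Ifit3 shares most of its sequence with Ifit3b. Isg15 was at 39.5, 34.8, 109.7 and 38.9 and then at 112, 129, 229.9 and 80.03 (1.36 ± 0.45, limma p 0.0151, adjusted p 0.998), overlapping only through control library 3. Ifit1 was at 74.4, 58.0, 85.4 and 44.5 and then at 316, 188, 49.6 and 168 (log2 1.22), with library 3 in the control range while the other 3 lay above it.

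Of the other effectors, Ifi35 and Rtp4 also had groups that did not overlap, 3 members in all with Ifit3 (1.78% of all genes). Ifi35 was at 300.3 to 355 in the controls and at 493, 526, 655 and 478 after antimiR-452 (0.72 ± 0.18, limma p 0.0033, adjusted p 0.998). Rtp4 was at 63.4, 97.6, 132 and 76.8 and then at 218, 153, 149 and 140.3 (log2 0.86). Ifi35 was therefore above all controls in both inhibitor groups of BAT, which share those controls. After antimiR-224 it was 1 of 33 members without overlap, near the 2.26% of all genes. It is also short, with 1727 bases of exon, and BAT libraries differed in short genes, as given below. Bst2, at 256.3, 385, 739 and 181 and then at 526, 689, 1143 and 612, had an estimate of 1.06, and its controls reached into the treated range through library 3.

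The transcription factor Irf7 was at 179, 188, 437 and 137 in the controls and at 591, 389.9, 431 and 298 after antimiR-452 (log2 0.97), again with control library 3 high. Irf9 was at 283 to 488 and then at 478, 603, 432 and 499, and Stat2 at 279 to 571 and then at 409, 576, 333 and 560.2, both overlapping. The sensor Dhx58 was at 61.9 to 112 and then at 118, 130.3, 205 and 103 (log2 0.85), whereas Ifih1 was at 148 to 193 and then at 244, 227, 39.5 and 276, with library 3 far below all controls.

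Some of the large ratios rested on library 1. Zbp1 was at 21.1, 7.73, 14.8 and 4.45 in the controls and at 137, 17.5, 21.3 and 16.6 after antimiR-452. Oas3 was at 11.9, 2.9, 14.8 and 0.0 and then at 63.8, 12.6, 5.06 and 8.31, and Oasl2 at 111, 80.2, 138 and 69.0 and then at 431, 143, 111 and 139. In each, library 1 was far above every other BAT library and the other 3 were in or near the range of the controls. Mx1 was at 10.1, 7.73, 8.43 and 2.23 and then at 36.4, 10.7, 8.1 and 15.6, with library 3 back within the controls. The authors' deposited table gives log2 ratios of 2.03 for Zbp1, 1.62 for Oas3 and 1.33 for Mx1. It gives Ifi27l2a as 2209 and 4640, a log2 ratio of 1.07 with an unadjusted p of 0.046. The PARP9 system had a median log2 of 0.08, with Parp9 at 333 to 427 and then at 432, 383, 213 and 459.

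Library 1 of this group also stood apart in genes that are no members. The geometric mean of 3 fibroblast and progenitor markers was 1387 in it, against 87.8 to 457 in the other 11 BAT libraries, and that of 13 macrophage markers was 245, against 60.2 to 201. Over the group, 2 of 14 macrophage markers had an estimate above 0 (median -0.38), against 43.9% of all genes. Without library 1 the median log2 of the 32 members then tested was 0.59. For brown adipocyte markers, the geometric mean of the 2 of 8 that were recovered was 332, 436, 323 and 461 after antimiR-452, against 504 to 724 in the controls, so all 4 libraries lay below all controls. In the authors' deposited table, which has all 8, 4 were above 0 and 4 below, with a median log2 ratio of -0.05. The part of these cells in the levels of the members was not tested.

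In BAT, libraries also differed in how long and short transcripts were represented. For each library, the median deviation of protein-coding genes over 6000 bases was set against that of genes under 2000 bases, each gene relative to its mean over the 12 libraries. Long minus short was 0.63, 0.21, 0.17 and 0.44 in the BAT controls, -0.34, 0.24, -0.60 and 0.14 after antimiR-224 and 0.32, -0.18, -1.13 and 0.14 after antimiR-452. Library 3 after antimiR-452, the lowest of all, was also the library in which the short Isg15 was highest and the long Ifih1 and Parp14 were lowest of the group, as was Samd9l, with 5427 bases of exon.

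For the members themselves, split at 3000 bases of exon, the difference of medians was 0.51, 0.51, 0.02 and 0.13 in the controls, -0.33, 0.26, -0.27 and 0.18 after antimiR-224 and -0.34, 0.08, -0.96 and 0.19 after antimiR-452. The 10 short members had median deviations of -0.51, -0.62, 0.21 and -0.66 in the controls and 0.91, 0.51, 0.64 and 0.22 after antimiR-452. The groups did not overlap, but only by 0.22 in antimiR-452 library 4 against 0.21 in control library 3. Over the short protein-coding genes above, the medians were -0.38, -0.11, -0.11 and -0.28 in the controls. After antimiR-452 these were mostly higher too, at -0.15, 0.13, 0.71 and -0.07, and overlapped the controls through library 1. The longer members had 0.00, -0.11, 0.24 and -0.54 and then 0.57, 0.59, -0.32 and 0.41, which overlapped through library 3. In WAT the difference over all genes lay between -0.37 and 0.33, and that of the members was lowest in antimiR-224 library 4, at -0.69. The part of transcript length in the antimiR-452 values was not tested.

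**Figure D5:**
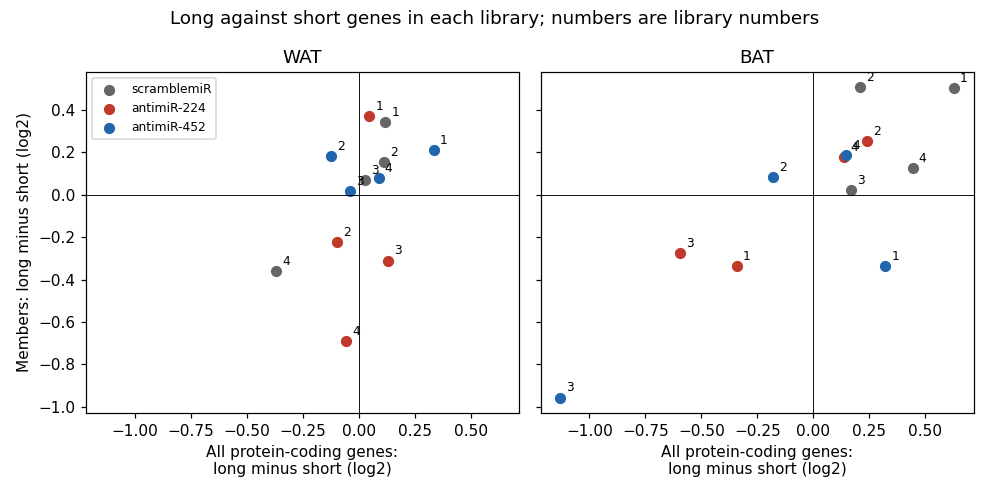
Long minus short genes in each library as a difference of median log2 deviations, over all protein-coding genes on the horizontal axis and over the interferon-stimulated genes on the vertical axis, each point 1 library numbered within its group. BAT antimiR-452 library 3 has the lowest value in both sets, -1.13 and -0.96, and the BAT controls lie above 0.

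Of the companion lists in BAT after antimiR-452, none had a called gene. Of all genes, 43.9% had an estimate above 0, and at an unadjusted p under 0.05 in limma 2.08% were higher and 2.13% lower. Antigen processing genes were above 0 in 8 of 9 (median log2 0.62) with 2 at an unadjusted p under 0.05, and the GTPases in 12 of 15 (median 0.29). Genes of nucleic acid sensing other than the members were above 0 in 2 of 12 (median -0.20), and regulatory factors in 2 of 7. Irf4, below 0 with -1.79, was the 1 regulatory factor at an unadjusted p under 0.05.

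Compared with each other at the same dose, the inhibitors differed in no member past the adjusted test in either tissue (limma, 0 of 33 in WAT and 0 of 34 in BAT, 0.0% of all genes in both). In WAT, 33 of 33 members were higher after antimiR-224 than after antimiR-452 by their estimate (53.3% of all 15237 genes), with a median log2 difference of 0.54. Samd9l differed by 0.82 (95% interval 0.06 to 1.58) and Rsad2 by 0.94 (0.03 to 1.84), with limma p-values of 0.0368 and 0.0436 and adjusted p of 1. These were the 2 members at an unadjusted p under 0.05, both higher (0.84% of all genes, and 0.473% lower), and without antimiR-224 libraries 3 and 4 the median was -0.22 and 0 members reached it. The count was 14 without antimiR-224 library 1, 9 without library 2 and 0 without library 3 or library 4, and the median was 0.13 without library 4. For fits with libraries left out, the share of all genes at that p was not computed. For Irf7, with a difference of 0.53, the interval ran from -0.32 to 1.39, and for Ifit1, with 0.94, from -0.28 to 2.16, so differences in either direction remain possible for these.

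In BAT the order was the opposite: 1 of 34 members was higher after antimiR-224 (47.0% of all 12101 genes), with a median of -0.54. Among the 34 were Oas3 and Mx1, which had not passed the minimum mean in the fit of antimiR-224 against scramblemiR. The filter therefore favoured their lower direction after antimiR-224. With the minimum mean raised to 50, 26 members were tested, 1 was higher and the median was -0.44. Irf7 differed most among the 4 members at an unadjusted p under 0.05 (0.43% of all genes lower), with values of 264, 156, 161 and 175 after antimiR-224 and 591, 389.9, 431 and 298 after antimiR-452. These did not overlap, and the log2 difference was -1.16 ± 0.35 (SE, 95% interval -1.91 to -0.41, limma p 0.0053, adjusted p 0.999). The other 3 were Ifit3 (-0.78), Oas2 (-1.05) and Oasl2 (-0.91). The count was 1 without antimiR-452 library 1, 2 without antimiR-224 library 1 or 3 and 6 without antimiR-452 library 3. The share of all genes at that p was not computed for these fits. For Ifit1, with a difference of -0.62, the interval ran from -1.72 to 0.48, and for Samd9l, with -0.28, from -1.70 to 1.14.

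Whether an inhibitor acted differently in the tissues was tested as an interaction over 16 libraries. For antimiR-224, 0 of 33 members passed with limma (0.0% of all 13241 genes), 28 of 33 were more positive in WAT (56.8% of all genes) with a median of 0.39, and 0 had an unadjusted p under 0.05 (3.22% of all genes upward). Without WAT antimiR-224 library 4 the median was -0.03, and without libraries 3 and 4 it was -0.36, with 3 members at an unadjusted p under 0.05, all lower in WAT. For antimiR-452, 0 of 34 passed (0.0% of all 13671 genes, lowest adjusted p 0.848), all 34 were more negative in WAT than in BAT (47.6% of all genes) with a median of -0.80, and 9 had an unadjusted p under 0.05 (2.55% of all genes downward). The leading ones were Ifit3 (-1.49 ± 0.39, limma p 0.0016, adjusted p 0.848), Ifi35 (-0.82), Dhx58 (-1.43), Isg15 (-1.69) and Rsad2 (-1.42). Without BAT antimiR-452 library 3 the count was 16. For the interaction fits with libraries left out, the share of all genes at that p was not computed. These tests treat the tissues as independent, and whether they came from the same mice is not stated in the labels.

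The members moved together across libraries of WAT more closely than in BAT. Over the 12 WAT libraries, Pearson's r of each of 33 members with the mean of the others ran from 0.43 (Samd9l) to 0.99, with a median of 0.92. Over the 12 BAT libraries, r of 34 members ran from 0.29 (Cmpk2) to 0.92 (Ifit1), with a median of 0.63. These are descriptions over libraries that share normalization and, in WAT, the far point of antimiR-224 library 4.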

How the data were processed

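The deposit by the authors consists of 4 tables, 1 per tissue and inhibitor, each against scramblemiR. Per the file headers, a table lists for each gene the mean signal of each group, which is the normalized count averaged by the authors over 4 libraries, and, also as deposited by the authors, the ratio of both means, its log2, a p-value and an adjusted p-value. The submitters' processing notes name DESeq 1.10.1, R 2.15.3 and the build GRCm38.p4, and no aligner, counter or annotation release is named in the labels. Snap-frozen tissue, Trizol, oligo-dT selection and a directional library kit were used, per the labels' protocols.

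The planned analysis assumed deposited counts, but the tables hold group means. Reads per library were therefore recovered from the printed digits, uniquely for all genes in controls and for 89.92% to 93.01% of genes in inhibitor groups. In inhibitor groups all recovered genes had means under 3000, and the highest recovered mean was 1637 to 2816 by group. Shares of all genes in the limma fits with an inhibitor group therefore leave out genes with higher means. Recovery and test were checked on simulated data. Which recovered library is which numbered sample is not known. No pair of libraries of a group agreed within sampling noise (chi-square per degree of freedom at least 12.2). Depth is known only for controls.

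Tests used limma 3.58.1 in R 4.3.3 on the recovered values (log2(normalized count + 1), a mean of at least 10, a mean-variance trend, robust estimates, Benjamini-Hochberg adjusted p at most 0.05 over all genes). Such fold changes understate those of low genes. Fits against scramblemiR used the size factors of that table, and the per-library values in the text a scale common to the 12 libraries of a tissue. In WAT, Oasl2 after antimiR-224 and Ifi27l2a and Lgals3bp after either inhibitor were not recovered; nor were, in BAT, Ifi27l2a after either inhibitor and Lgals3bp after antimiR-452. Deposited means are given for these. Geometric means were taken after adding 1 and then subtracting it. Lengths and overlaps come from the GENCODE annotation of GRCm38. Python 3.11.15 with numpy 2.4.6 and pandas 2.3.3 did the rest.

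The members and companion lists were chosen with earlier results of these data known. By rule, per-library values are given for members past the threshold, for the 5 with the largest deposited change in each comparison and for at least 1 of each role. Members at an unadjusted p under 0.05 and other examples were named after their values were seen. Alternatives were pseudocounts of 0.5 and 5, other minimum means (0 and 50), other size factors, non-robust variance, the authors' deposited p-values, and each library left out in turn.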

Additional observations from a re-analysis of the deposited data

Results flagged for a closer look

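Within groups of 4 libraries, 15 of 208 sets of values of a member (7.21%) held a library whose gap to the nearest other, divided by the range of the group, was above Dixon's 95% critical value. Chance gives about 1 in 20 only for independent, normally distributed values. The values here were counts not taken to logs, and the members moved together across libraries. The share over all genes was not computed, so the 7.21% cannot be set against chance. In WAT, antimiR-224 library 4 was far above the other 3 libraries for 5 members, with 1771 normalized counts for Zbp1, 3088 for Irf7, 1190.0 for Isg15, 602 for Oas3 and 3139 for Bst2. AntimiR-452 library 2 in WAT was far below the others for Ifit3b, at 47.4. WAT scramblemiR library 3 was far above the other controls for Ifi27l2a, at 34101.

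In BAT, scramblemiR library 3 was far above the other controls for 4 members, with 112 for Dhx58, 437 for Irf7, 109.7 for Isg15 and 45.3 for Oasl1. BAT antimiR-452 library 1 was far above its group for 4 members, with 137 for Zbp1, 63.8 for Oas3, 431 for Oasl2 and 218 for Rtp4. The geometric mean of the PARP9 system in BAT after antimiR-452 was far below the other 3 libraries in library 3, at 231. The causes were not tested.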

How the results depend on the processing

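The members past the adjusted threshold stayed at 0 under every alternative run in the 8 comparisons other than WAT against BAT controls. Over all genes, 277 of 15637 were called in WAT antimiR-224 against scramblemiR without libraries 3 and 4. Without WAT antimiR-452 library 4, 541 of 15626 were called against scramblemiR and 45 of 13688 in the tissue difference. The tissue difference of antimiR-224 without WAT libraries 3 and 4 had 87 of 13216 called. Each other alternative of these 8 comparisons called at most 1 gene. Other size factors and the authors' deposited p-values were tried only in the 4 comparisons against scramblemiR. No paired analysis was possible because the recovered libraries cannot be tied to the numbers in the headers or titles. Leaving out the high WAT antimiR-224 libraries 3 and 4 turned the median log2 fold change of the members to -0.27 against scramblemiR; chosen after seeing the data, the same step gave a median of -0.22 and 0 members at an unadjusted p under 0.05 against antimiR-452, and -0.36 and 3 members in the tissue difference. With a minimum mean of 50 the BAT antimiR-224 median was -0.0023. By the authors' deposited p-values, 0 members had an unadjusted p under 0.05 in WAT after antimiR-452, 0 in BAT after antimiR-224 and 3 in BAT after antimiR-452. With each library left out in turn, the median ranged from 0.05 to 0.85 (WAT antimiR-224), -0.14 to 0.017 (WAT antimiR-452), -0.14 to 0.34 (BAT antimiR-224), 0.54 to 0.87 (BAT antimiR-452), 0.13 to 0.83 (antimiR-224 against antimiR-452 in WAT), -0.69 to -0.39 (in BAT), 0.76 to 1.05 (controls), -0.035 to 0.66 (tissue difference of antimiR-224) and -0.97 to -0.64 (of antimiR-452). In that order, the members at an unadjusted p under 0.05 numbered 2 to 8, 0 to 2, 1 to 5, 4 to 18, 0 to 14, 1 to 6, 20 to 29, 0 to 2 and 7 to 16, and the called members of the control comparison 16 to 27. Shares of all genes at an unadjusted p under 0.05 were not computed for these fits. Of the values of single members under an alternative, 1032 kept their side of the threshold, 14 lost and 13 gained a call. A change of direction was scored only for members called in the main setting, and 0 of these reversed. Members that were not called could change direction within the 1032, as Zbp1 did in WAT after antimiR-224 without libraries 3 and 4. The cause of these changes was not tested beyond the libraries left out. Depth is known only for controls, so limits of detection could not be set for the inhibitor groups.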
